A study of Rattus norvegicus with 8 samples.

Results

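The genes described here encode the subunits of the oxidative phosphorylation machinery, measured in the thyroid of male Wistar rats by RNA-Seq. They were taken by symbol (Ndufa, Ndufb, Ndufc, Ndufs, Ndufv, Sdha to Sdhd, Uqcr, Cox4i, Cox5, Cox6, Cox7, Cox8, Atp5 and Mt-) among genes that the authors' table marks as protein coding, and were selected on their measured counts, with a mean raw count of at least 50 over the 8 samples, each gene being represented by its transcript with the highest summed count. This gave 94 of the 30560 gene identifiers in the table, from 104 candidates. The 94 were 74 nuclear subunit entries, 13 mitochondrially encoded genes and 7 assembly factors whose symbols start with Ndufaf, which the prefix Ndufa takes in and which are kept apart below. Because the rule used the mean count, the expression level of the members is a description. The rule itself used no difference between groups, but the members were chosen with earlier results of these data known. Just inside the limit stood Ndufaf2, Cox4i2 and Mt-nd6, with mean raw counts of 62.1, 77.1 and 83.5. Just outside it stood a second identifier of Atp5mk, Cox7a1 and Ndufv3-ps1, with mean raw counts of 29.4, 28.4 and 15.

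The 4 groups, with 2 samples from different rats in each, were 1w0Gy (sham irradiation at 1 week of age), 1w4Gy (4 Gy of X-rays to the neck at 1 week), 4m0Gy (sham irradiation at 4 months) and 4m4Gy (4 Gy at 4 months). The thyroid was taken about 8 weeks after treatment, so the age groups differed in age at treatment and at necropsy alike. All rats were male and of an outbred stock, and the RNA samples with the higher integrity had been selected within each group. The p-values below measure the spread between these rats.

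Oxidative phosphorylation is carried out in the inner mitochondrial membrane. Complexes I and II take electrons from NADH and succinate, complexes III and IV pass them on through cytochrome c to oxygen while protons are pumped, and complex V, the ATP synthase, uses the proton gradient to make ATP. All complexes except complex II combine subunits encoded in the nucleus with subunits encoded in mitochondrial DNA, which is transcribed as long RNAs from both of its strands and cut into single mRNAs. In thyroid follicular cells, mitochondrial ATP serves the sodium gradient that drives iodide uptake as well as protein synthesis and secretion.

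Nuclear respiratory genes are known for promoters that bind the factors NRF-1, GABP, YY1 and ERR. RefSeq promoter sequences (assembly GRCr8, 250 bases before to 50 bases after the gene start) were matched for 64 of the 72 symbols of the nuclear subunits. The NRF-1 core GCATGCGC, searched on both strands, stood in 8 of these 64 promoters (12.5%) and in 2.47% of all 33469 promoters. The YY1 motif AAGATGGC stood in 14 (21.9%, against 3.17% of all promoters), and the GABP or ETS motif CCGGAAGT in 7 (10.9%, against 3.81%). The ERR motif TCAAGGTCA stood in 2 (3.12%, against 0.433%), and the cAMP response element TGACGTCA in 2 (3.12%, against 1.83%). At least 1 of the 5 motifs was found in 28 promoters, and the NRF-1 core together with the YY1 motif in 4. Stretches of 30 bases around the NRF-1 core are given because this palindrome-like motif is the best known feature of the family. Capitals mark every match to the core on either strand, so that overlapping matches on both strands run together. The sequences are on the strand of the gene, 5′ to 3′.
Ndufa6, complex I, chr7:115750403-115750432, minus strand: tccgcggtagaGCATGCGCatggcagagcc
Ndufa11, complex I, chr9:1637506-1637535, plus strand: acctgcgctgtGCGCATGCGCATGCGCaca
Sdhb, complex II, chr5:158547756-158547785, plus strand: aagcccagtggGCATGCGCcctactggccg
Uqcrc1, complex III, chr8:118468173-118468202, plus strand: tactccaccctGCGCATGCgtagcgcggct
Atp5mc2, complex V, chr7:135678256-135678285, minus strand: tggctctagtcGCGCATGCGCagagccttc
Atp5me, complex V, chr14:1464773-1464802, plus strand: tttgcgctacgGCGCATGCGCtttcctggc
Atp5po, complex V, chr11:44657524-44657553, minus strand: cacgccgacgcGCGCATGCGCtctggcatc
In 4 of these 7 stretches (Ndufa11, Atp5mc2, Atp5me and Atp5po) the core was found on both strands at overlapping positions. The eighth promoter with the core, that of Atp5mg, holds it at the edge of the window. A match is a match of letters and not a measured binding site.

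Each sample had 14835406 to 18138106 counts on genes (median 16180961). Thyroglobulin alone took 18.5% to 21.3% of them, and none of the 12 follicular cell markers was at 0 in all samples (Slc26a4 had 0 to 6 counts, the other 11 at least 490). Counts of the replicates differed beyond sampling noise in every group (chi-square per degree of freedom 7.97 to 16.2). One library stood apart for the genes described here. In 1w4Gy rat 2, all 74 nuclear subunits were below their own mean over the 8 samples, and 51 of the 74 had their lowest value there. The neonatal and interaction medians, and the neonatal counts by direction, are therefore also given without it.

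The mitochondrially encoded subunits far exceeded the nuclear ones at the RNA level. TPM, which corrects for transcript length, had a median of 3547 over the 13 mitochondrial genes and of 76.3 over the 74 nuclear subunits, a ratio of 46.5. Within complex I the medians were 3042 and 50.7, and within complex IV 10615 and 160.5. The nuclear subunits of complex IV and complex V (median TPM 125.5) stood above those of complex II (71.2) and complex III (75.3). The 7 Ndufaf factors, which help to build complex I and are not part of the finished enzyme, had a median of 6.98 TPM.

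**Figure D1:**
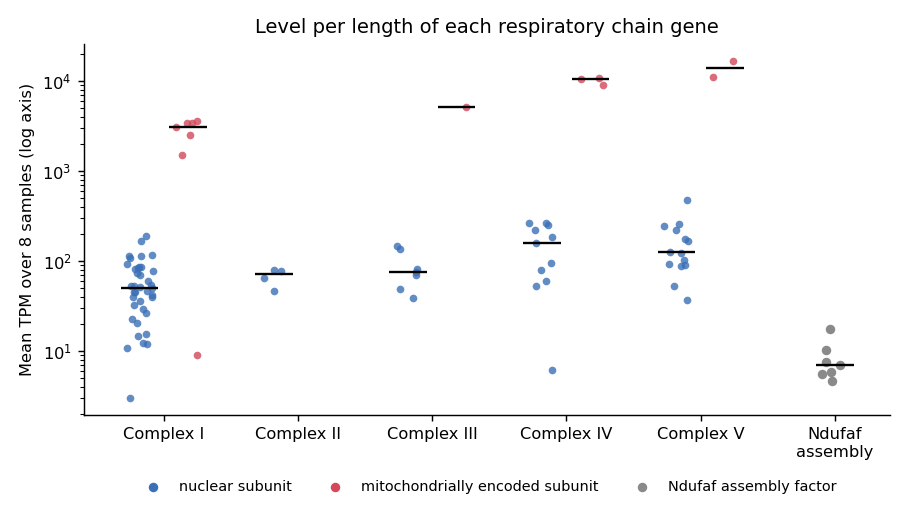
Mean TPM over the 8 samples (log axis) of each nuclear subunit gene, mitochondrially encoded subunit gene and Ndufaf assembly factor, by complex; the black bars are medians. The mitochondrial genes sit above all nuclear subunits of the same complex except Mt-nd6, at 9.10 TPM.

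Among nuclear members, the highest mean TPM in each complex belonged to Ndufb4 in complex I (190.4), Sdha, the flavoprotein of succinate dehydrogenase, in complex II (79.4), Uqcrq in complex III (146.8), Cox6a1 in complex IV (266.4) and Atp5f1b, the catalytic beta subunit of ATP synthase, in complex V (476.2). The level of Atp5f1b was 959.7 and 984.0 CPM (counts scaled to the size of the library) in 1w0Gy, 995.2 and 837.9 in 1w4Gy, 845.9 and 893.7 in 4m0Gy, followed by 898.8 and 940.2 in 4m4Gy. The 1w4Gy values spanned those of all other groups.

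For the mitochondrial genes, Mt-co1, the core subunit of cytochrome c oxidase, took the most reads, 16249 to 19127 CPM. Per length, Mt-atp8 was highest with a mean of 16688 TPM, followed by Mt-atp6 (10932), Mt-co1 (10672), Mt-co3 (10615) and Mt-co2 (8922). Mt-cyb of complex III had 5157 TPM, and the complex I genes Mt-nd1 to Mt-nd5 with Mt-nd4l had 1508 to 3547 TPM. Mt-atp8 overlaps Mt-atp6, and Mt-nd4l overlaps Mt-nd4, so that the division of reads within these pairs is uncertain. Mt-nd6, the only protein gene on the light strand, stood far below the rest. Its level was 4.91 and 5.10 CPM in 1w0Gy, 5.29 and 2.66 in 1w4Gy, 5.17 and 6.28 in 4m0Gy, followed by 6.31 and 5.12 in 4m4Gy, against 2680 to 3362 CPM for Mt-nd5.

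**Figure D2:**
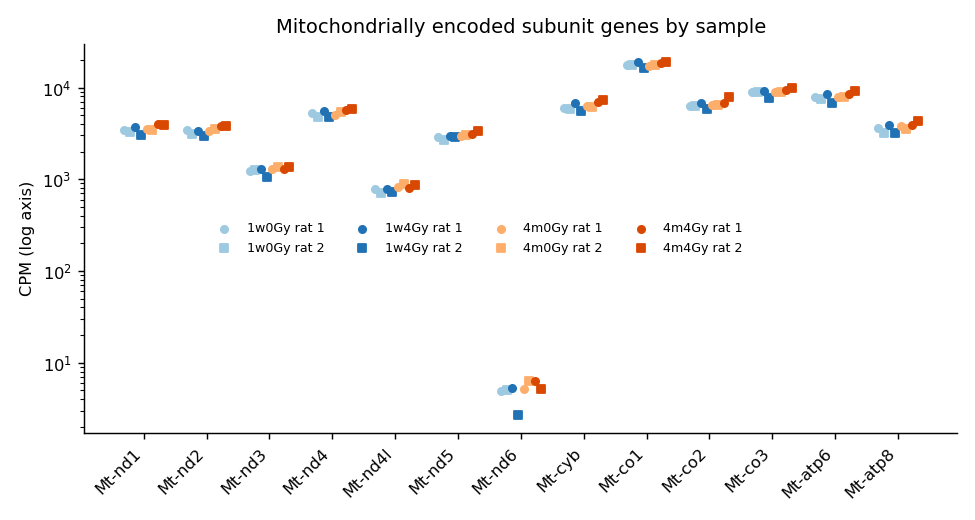
CPM (log axis) of the 13 mitochondrially encoded genes in each of the 8 samples; colors mark the groups and shapes the rats. The samples lie close together for each gene except Mt-nd6, which is between 2.66 and 6.31 CPM, with Mt-co1 between 16249 and 19127 CPM.

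Neonatal irradiation was examined by comparing 1w4Gy with 1w0Gy. None of the 94 members passed the threshold of an adjusted p of 0.05 over all 15359 genes tested (edgeR's quasi-likelihood test), where 0.00651% of all genes did. The nuclear subunits lay slightly lower in 1w4Gy, with a median log2 fold change of -0.10 and 68 of 74 below 0, against 50% of all genes tested. The mitochondrial genes had a median of 0.01, with 7 of 13 above 0. At an unadjusted p under 0.05, 2 nuclear members were lower (2.70% of them, against 2.37% of all genes) and none was higher (3.31% of all genes). Values of the groups did not overlap for 28 nuclear members, all lower in 1w4Gy (37.8%, against 17.8% of all genes lower and 17.7% higher).

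The 2 members were Ndufv2 and Ndufc2 of complex I. Ndufv2, a subunit of the NADH-oxidizing part, had 88.7 and 94.3 CPM in 1w0Gy and 78.4 and 72.1 in 1w4Gy, a log2 fold change of -0.28 ± 0.09 (SE; unadjusted p = 0.013, edgeR adjusted p = 0.85). Ndufc2, an accessory membrane subunit, had 78.6 and 82.9 CPM in 1w0Gy and 69.5 and 65.8 in 1w4Gy (-0.26 ± 0.08, edgeR adjusted p = 0.88). For both genes each irradiated rat was below each sham rat, which their choice by small p favors.

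The next smallest p among the lower genes was that of Atp5me, the small e subunit of ATP synthase, with 36.4 and 44.3 CPM in 1w0Gy and 35.7 and 30.2 in 1w4Gy (-0.29 ± 0.13). The Atp5me difference ranged from -0.43 without 1w0Gy rat 1 to -0.14 without 1w0Gy rat 2, and was -0.18 without 1w4Gy rat 2. On the higher side, Ndufs5 (identifier ENSRNOG00000026646) had 0.08 ± 0.10, Ndufa2 0.09 ± 0.13 and Ndufa4l2 0.10 ± 0.20, all within their standard errors and with groups that overlapped. By complex, the nuclear medians were -0.09 for complex I, -0.07 for complex II, -0.14 for complex III, -0.11 for complex IV and -0.10 for complex V, and every nuclear member of complexes II, III and IV was below 0. Without 1w4Gy rat 2 the medians were 0.00045, -0.012, -0.043, 0.011 and -0.013 in the same order, and 3 of 4, 5 of 7 and 4 of 11 members of complexes II, III and IV were below 0.

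The neonatal nuclear difference rested on 1w4Gy rat 2. Without it the nuclear median was -0.0085, with 35 of 74 above 0, and the groups did not overlap for 29 nuclear members on the lower side (35.2% of all genes) and 25 on the higher side (36% of all genes). In that fit the mitochondrial median was 0.11, with 13 of 13 above 0. Without 1w4Gy rat 1 the nuclear median was -0.21 and the mitochondrial median -0.11. The nuclear subunits have short transcripts, with a median of 1202 bases against 2688 for all genes tested. With the dependence on transcript length taken out of every library, the neonatal medians were -0.05 for the nuclear and 0.08 for the mitochondrial genes, and 55 of 74 nuclear members were below 0.

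**Figure D3:**
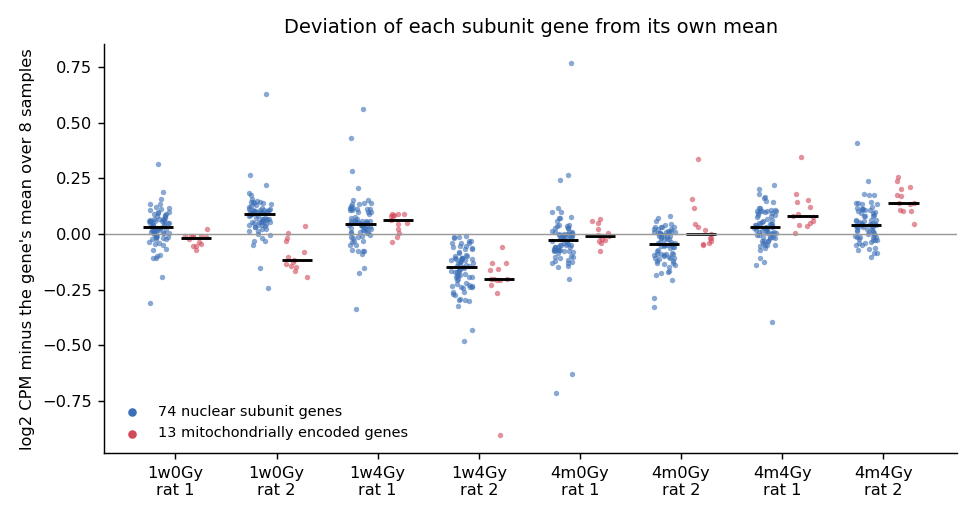
log2 CPM of each subunit gene minus that gene's mean over the 8 samples, for 74 nuclear and 13 mitochondrially encoded genes in each rat; the black bars are medians. In 1w4Gy rat 2 the nuclear median is -0.15 and the mitochondrial median -0.20, whereas in 1w4Gy rat 1 they are 0.05 and 0.07.

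Adult irradiation was examined by comparing 4m4Gy with 4m0Gy. Again no member passed the adjusted threshold (0.0197% of 15253 genes did). The nuclear subunits lay slightly higher after irradiation, with a median log2 fold change of 0.08 and 59 of 74 above 0, whereas 48.1% of all genes were below 0. The mitochondrial median was 0.15, with 10 of 13 above 0. At an unadjusted p under 0.05, 9 nuclear members were higher (12.2%, against 3.44% of all genes) and none was lower (4.96% of all genes), and of the mitochondrial genes Mt-cyb was higher. The groups did not overlap for 40 nuclear members on the higher side (20.9% of all genes) and 3 on the lower side (18.7% of all genes), and for 10 mitochondrial genes, all higher.

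The 9 nuclear members were Ndufa1, Ndufa4l2, Ndufa6, Ndufa7, Ndufb5 and Ndufs5 of the complex I group, Uqcrq, and Atp5if1 and Atp5pf of complex V. Ndufa6, an accessory subunit of complex I whose promoter is shown above, had 44.5 and 45.2 CPM in 4m0Gy and 52.8 and 52.6 in 4m4Gy (0.23 ± 0.08, unadjusted p = 0.014, edgeR adjusted p = 0.47). Ndufa1 had 88.5 and 86.7 CPM in 4m0Gy and 100.8 and 99.3 in 4m4Gy (0.19 ± 0.07, edgeR adjusted p = 0.53). In both genes the rats of a group lay close together and the groups were apart, which their choice by small p favors. With the dependence on transcript length taken out, the differences were 0.13 for Ndufa6 and 0.11 for Ndufa1.

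Mt-cyb, which encodes cytochrome b, had 6323 and 6156 CPM in 4m0Gy and 7004 and 7340 in 4m4Gy (0.20 ± 0.08, edgeR adjusted p = 0.56). Mt-co2 (0.19 ± 0.09) and Mt-nd1 (0.17 ± 0.08) were next in size among the mitochondrial genes. Mt-nd4l at -0.06 ± 0.08, Mt-nd6 at -0.01 ± 0.23 and Mt-nd3 at -0.0039 ± 0.08 were the 3 below 0. On the lower side of the nuclear genes, Atp5me had 43.7 and 37.1 CPM in 4m0Gy and 33.8 and 36.2 in 4m4Gy (-0.21 ± 0.10, and -0.09 without 4m0Gy rat 1 or -0.33 without 4m0Gy rat 2). Ndufb3 (-0.08 ± 0.08) and the second identifier of Ndufa10l1, ENSRNOG00000062245 (-0.24 ± 0.20), differed by about their standard errors.

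With the dependence on transcript length taken out in the same way, the nuclear median was 0.0052, with 39 of 74 above 0. At an unadjusted p under 0.05, no nuclear member was then higher and 1 was lower (Atp5me, -0.295). Of all genes, 2.878% were higher and 3.481% lower in that fit. The mitochondrial median was 0.06, with 10 of 13 above 0. The count of 9 nuclear members higher before this removal fell whichever rat was left out, whereas the nuclear median stayed between 0.07 and 0.08. By complex, the nuclear medians before this removal were 0.08 for complex I, -0.0077 for complex II, 0.07 for complex III, 0.08 for complex IV and 0.07 for complex V.

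The ages were compared between the sham groups, 4m0Gy with 1w0Gy. These samples are also the controls of the irradiation comparisons, so the results are not independent of those above. No member passed the adjusted threshold (1.06% of 15364 genes did), the smallest adjusted p being 0.078. The nuclear subunits lay lower in the older rats, with a median of -0.08 and 67 of 74 below 0 (50% of all genes). The mitochondrial genes had a median of 0.06, with 12 of 13 above 0. At an unadjusted p under 0.05, 15 nuclear members were lower (20.3%, against 8.88% of all genes) and none was higher, whereas Mt-nd4l was the single mitochondrial gene that was higher (8.91% of all genes). The count of 15 fell whichever rat was left out. The groups did not overlap for 44 nuclear members, all lower (24.8% of all genes), and for 6 mitochondrial genes, all higher (25.4% of all genes).

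Complex III was at the front of this difference, with a nuclear median of -0.19 and 5 of its 7 nuclear members (Uqcr10, Uqcrc1, Uqcrc2, Uqcrh and Uqcrq) lower at an unadjusted p under 0.05. With the dependence on transcript length taken out, 2 of these 7 (Uqcr10 and Uqcrc2) were lower at that p (7.765% of all genes). The medians of the other complexes were -0.06 for complex I, -0.07 for complex II, -0.09 for complex IV and -0.10 for complex V. Uqcr10, a small subunit of complex III, had 85.4 and 85.9 CPM in 1w0Gy and 70.2 and 67.5 in 4m0Gy (-0.32 ± 0.07, unadjusted p = 0.0017, edgeR adjusted p = 0.078). The sham rats of each age lay close together, and both older sham rats were below both younger ones. The choice of this gene by small p favors such a pattern. Cox7a2l, which helps to join complexes III and IV into supercomplexes, had 136.5 and 136.8 CPM in 1w0Gy and 120.9 and 115.9 in 4m0Gy (-0.21 ± 0.07, edgeR adjusted p = 0.17).

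Mt-nd4l had 775.0 and 706.5 CPM in 1w0Gy and 832.5 and 886.0 in 4m0Gy (0.21 ± 0.08, edgeR adjusted p = 0.25). The nuclear genes with the smallest p on the higher side were Ndufa10l1 (ENSRNOG00000062245, 0.18 ± 0.21), Atp5if1, the inhibitor of ATP hydrolysis (0.05 ± 0.08), and Ndufa3 (0.04 ± 0.09), none beyond its standard error. Among the Ndufaf factors only Ndufaf4 was below 0 at an unadjusted p under 0.05 (-0.36), and the median of the 7 was -0.0037. After removal of the length trend, the nuclear median between the ages was -0.01, with 41 of 74 below 0. At an unadjusted p under 0.05, 4 nuclear members were then lower (5.405%, against 7.765% of all genes in that fit). Under the same removal the mitochondrial median was 0.14, with 13 of 13 above 0, and the median of complex III was -0.09.

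**Figure D4:**
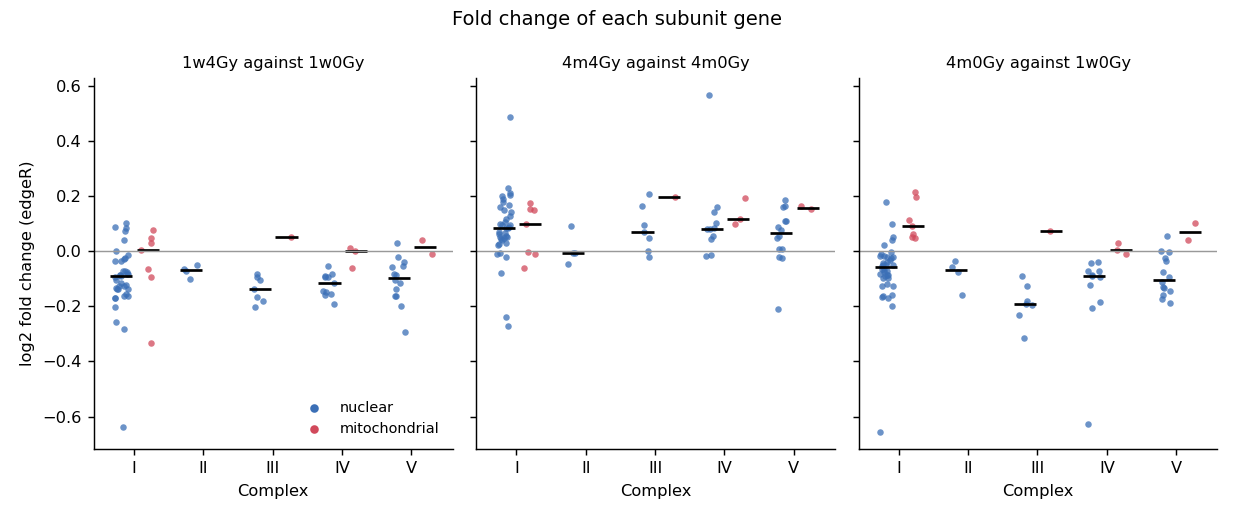
log2 fold change (edgeR) of each nuclear and mitochondrially encoded subunit gene, by complex, in the 3 pairwise comparisons; the black bars are medians. The nuclear medians lie below 0 in 1w4Gy against 1w0Gy and in 4m0Gy against 1w0Gy, and above 0 in 4m4Gy against 4m0Gy except in complex II (-0.0077); none of these genes passed the adjusted threshold.

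Whether the response to irradiation differed between the ages was tested with all 8 samples as an interaction, the neonatal minus the adult log2 fold change. No member passed the adjusted threshold (0% of 15684 genes did), and the smallest adjusted p among the members was 0.40. The nuclear median was -0.18, with 72 of 74 below 0 (52.3% of all genes), and the mitochondrial median was -0.15. At an unadjusted p under 0.05, 13 nuclear members were below 0 (17.6%, against 3.4% of all genes) and none above 0 (5.71% of all genes). Ndufv2 had the largest size among these 13, -0.45 ± 0.11 (edgeR adjusted p = 0.40), followed by Uqcrq, -0.39 ± 0.13. Without 1w4Gy rat 2 the nuclear median was -0.09, and without 1w4Gy rat 1 it was -0.29. The count of 13 changed whichever rat was left out, and fell in every such fit except that without 1w4Gy rat 1. The mitochondrial median was -0.0049 and -0.29 in the 1w4Gy fits. After removal of the length trend the nuclear median was -0.06 and the mitochondrial median 0.0057. At an unadjusted p under 0.05, 2 nuclear members were then below 0 and 1 above 0. Of all genes, 2.703% were below 0 and 3.877% above 0 at that p in that fit. The Wald test of DESeq2 gave no member past the adjusted threshold in any of the 4 tests. At an unadjusted p under 0.05 it gave 1 nuclear member lower in 1w4Gy against 1w0Gy (1.07% of all genes) and none higher in 4m4Gy against 4m0Gy (1.29% of all genes). It gave 3 lower in 4m0Gy against 1w0Gy (4.99% of all genes) and 5 below 0 in the interaction (1.53% of all genes). Of the 13 mitochondrial genes, DESeq2 gave 2 higher in 4m4Gy against 4m0Gy at that p (1.29% of all genes).

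The balance between the genomes was also taken as the ratio of summed counts, 13 mitochondrial genes over 74 nuclear subunits. It was 8.24 and 7.67 in 1w0Gy, 8.68 and 8.43 in 1w4Gy, 8.74 and 8.82 in 4m0Gy, followed by 8.95 and 9.37 in 4m4Gy. The ratio was higher in each irradiated rat than in each sham rat of the same age, and higher in each older than in each younger sham rat. The mitochondrial genes took 6.05% to 7.48% of all gene counts, and the nuclear subunits 0.718% to 0.840%. In 1w4Gy rat 2, both were at their lowest while the ratio was near that of the other 1w4Gy rat. With summed TPM the ratio was 11.002 and 10.03 in 1w0Gy, 11.5 and 11.2 in 1w4Gy, 11.56 and 11.74 in 4m0Gy, followed by 11.74 and 12.5 in 4m4Gy, so that the adult groups nearly touched. The ratio is dominated by a few abundant mitochondrial genes and was not tested. In whole tissue, fewer cells of a type and less RNA per cell cannot be told apart.

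Some subunits exist as isoforms that are used in different tissues or under different oxygen supply. Cox4i1 is the common form of the regulatory subunit 4 of complex IV, and Cox4i2 is known from lung and from oxygen-sensing cells. Cox4i2 was at 3.15% to 4.31% of the TPM of Cox4i1 in the 1-week groups, 2.13% and 3.03% in 4m0Gy, followed by 3.55% and 3.41% in 4m4Gy. Its level was 5.67 and 4.92 CPM in 1w0Gy, 6.16 and 3.77 in 1w4Gy, 2.78 and 4.05 in 4m0Gy, followed by 5.24 and 4.92 in 4m4Gy. The 4m0Gy values were below those of both 1w0Gy (log2 fold change -0.63 ± 0.25, edgeR adjusted p = 0.26) and 4m4Gy (0.57 ± 0.27 for 4m4Gy against 4m0Gy, edgeR adjusted p = 0.61). The first of these ranged from -0.93 without 4m0Gy rat 2 to -0.39 without 4m0Gy rat 1, and the second from 0.32 without 4m0Gy rat 1 to 0.86 without 4m0Gy rat 2.

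Ndufa4l2, a hypoxia-inducible relative of Ndufa4, also had its lowest group mean in 4m0Gy. Ndufa4 itself is now placed in complex IV, and both are counted here with complex I by name. Ndufa4l2 had 12.1 and 12.7 CPM in 1w0Gy, 16.04 and 10.6 in 1w4Gy, 7.04 and 8.68 in 4m0Gy, followed by 11.5 and 10.6 in 4m4Gy. It was lower in 4m0Gy than in 1w0Gy by -0.66 ± 0.16 on the log2 scale (unadjusted p = 0.0041, edgeR adjusted p = 0.11) and higher in 4m4Gy than in 4m0Gy by 0.49 ± 0.18 (edgeR adjusted p = 0.52). Both differences share the 4m0Gy samples. Relative to Ndufa4, its TPM was 6.96% and 6.87% in 1w0Gy, 9.11% and 7.07% in 1w4Gy, 4.27% and 5.01% in 4m0Gy, followed by 6.48% and 5.997% in 4m4Gy. The 4m0Gy rats were lowest in both isoform shares.

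**Figure D5:**
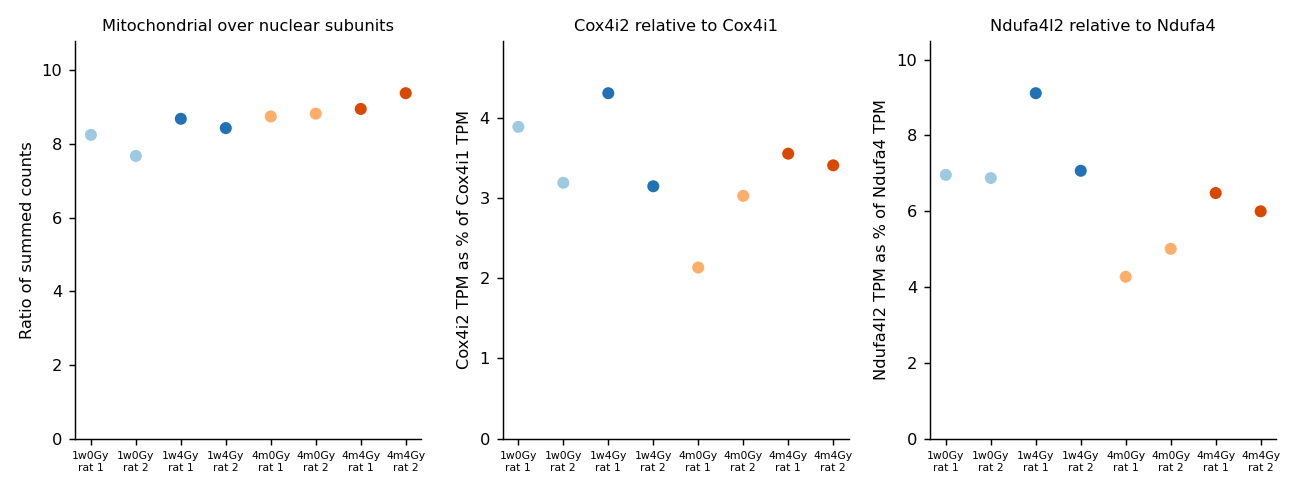
Left, summed counts of the 13 mitochondrial genes over those of the 74 nuclear subunits in each sample; middle and right, TPM of Cox4i2 as a percentage of Cox4i1 and of Ndufa4l2 as a percentage of Ndufa4. The ratio runs from 7.67 to 9.37, and both isoform shares are lowest in 4m0Gy rats (2.13% and 4.27% in rat 1).

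Of the muscle isoforms, Cox6a2 and Cox7a1 were under the count limit, at 0.11 to 1.45 and 1.08 to 2.33 CPM, while the common form Cox6a1 had 132.9 to 176.5 CPM. The muscle markers Acta1 (1.98 to 33.9 CPM) and Ckm (0.65 to 12.7 CPM) varied within groups. The testis forms Cox7b2 and Cox8c had 0 or 1 counts per sample.

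RNA of other tissues moved with some of the comparisons, and its part in the results was not tested. Of 11 adipocyte markers tested, 10 were lower in 1w4Gy than in 1w0Gy at an unadjusted p under 0.05 (2.37% of all genes). Their summed level was 793.3 to 930.1 CPM in 1w0Gy, 577.6 to 604.5 in 1w4Gy, 388.9 to 622.5 in 4m0Gy and 364.8 to 439.2 in 4m4Gy. The brown fat markers, of which Zic1 was at 0 in all samples, summed to 181.0 to 217.9, 130.4 to 159.3, 113.8 to 195.8 and 111.8 to 112.2 CPM in the same order. Skeletal muscle markers summed to 52.6 to 182.8 CPM, with groups that overlapped. Parathyroid markers summed to 4771 to 7274 CPM in 1w0Gy, 3053 to 4354 in 1w4Gy, 5607 to 7510 in 4m0Gy and 642.6 to 7721 in 4m4Gy. All 5 were lower in each 1w4Gy rat than in each 1w0Gy rat (17.8% of all genes). Their median was -0.61, with 2 of 5 lower at an unadjusted p under 0.05 (2.37% of all genes). C cell markers summed to 2035 to 3529 CPM in the 1-week groups, 4425 to 5720 in 4m0Gy and 6358 to 7300 in 4m4Gy. Red blood cell genes summed to 595.0 to 810.3 CPM in the 1-week groups and 410.1 to 553.9 in the 4-month groups. Lymphocyte markers summed to 8.85 to 16.5 CPM. Cartilage and trachea markers, with Matn1 at 0, summed to 220.6 to 258.1 CPM. Thyroid follicular cell markers summed to 189500 to 225000 CPM.

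Other genes of mitochondrial respiration were counted in the same fits, and none passed the adjusted threshold in any of the 4 tests. Between the ages, where unadjusted calls were most frequent, 5 of 18 genes of the citric acid cycle were lower and none higher, with a median of -0.13, whereas 8.88% of all genes were lower and 8.91% higher. Of these, fumarase (Fh) had -0.21 ± 0.07 and Dlat, a core subunit of pyruvate dehydrogenase, -0.32 ± 0.11. Among carriers, cytochrome c and uncoupling proteins, 5 of 20 tested were lower (median -0.10, against 8.88% of all genes lower), led by Coq9, needed for coenzyme Q synthesis (-0.32 ± 0.08, edgeR adjusted p = 0.12), and cytochrome c, Cycs (-0.23 ± 0.07). Dlat had 49.5 and 50.03 CPM in 1w0Gy and 35.5 and 44.1 in 4m0Gy, and both older sham rats were below both younger ones.

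The assembly factors other than Ndufaf had 2 of 38 lower (median -0.07), a smaller share than the 8.88% of all genes, with Cox18 at -0.38 ± 0.12 and Sdhaf1 at -0.26 ± 0.11. Genes for upkeep and expression of mitochondrial DNA had 1 of 29 lower (median -0.02), also below that share. These included Elac2, which trims mitochondrial tRNAs (-0.23 ± 0.09), and Polg, the mitochondrial DNA polymerase (-0.20 ± 0.09). Among the regulators of respiratory genes, 2 of 17 were higher and 1 lower (8.91% and 8.88% of all genes). The nuclear receptor Esrrb had 4.37 and 4.17 CPM in 1w0Gy and 6.78 and 8.86 in 4m0Gy (0.87 ± 0.21, edgeR adjusted p = 0.10). Pparg, the master regulator of fat cells, had 18.5 and 15.5 CPM in 1w0Gy and 9.95 and 11.1 in 4m0Gy (-0.69 ± 0.15, edgeR adjusted p = 0.080). Of the regulators in 1w4Gy against 1w0Gy, 3 of 17 were higher and 1 lower at an unadjusted p under 0.05 (3.31% and 2.37% of all genes). In that comparison, 2 of 20 carriers, cytochrome c and uncoupling proteins and 1 of 18 citric acid cycle genes were lower at that p. None of them was higher. The other assembly factors and the genes for mitochondrial DNA had none in either direction.

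The nuclear subunits with a promoter motif and those without are described by their medians, with no test. For the 28 symbols with at least 1 motif, the median log2 fold change was -0.11 in 1w4Gy against 1w0Gy, 0.04 in 4m4Gy against 4m0Gy and -0.11 in 4m0Gy against 1w0Gy. For the 36 without, it was -0.09, 0.08 and -0.07, and the median levels were 76.3 and 79.8 TPM. For the 8 with the NRF-1 core, the medians were -0.15, 0.05 and -0.14 in the same order, at a median level of 81.3 TPM.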

How the data were processed

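Thyroid RNA was sequenced by the authors from directional libraries, mapped with HISAT2 2.2.1 and counted with featureCounts 2.0.0. The authors deposited raw counts and TPM for 54991 transcripts. The TPM values deposited by the authors are scaled for length and depth and were used for levels. The deposited RPKM values were not used. The genome build, the strand setting of the counting and the handling of reads with several hits are not given in the sources used here. RefSeq names 86 pseudogenes after 37 of the nuclear subunit genes, and Ndufa10l1 and Ndufs5 each stand on 2 member identifiers, so those values are uncertain. Atp5mc1 and Ndufs6 are marked as lncRNA and pseudogene in the table and were left out by the rule. Cox7a2, Cox8a, Cox8b and Cox6b2 were not analysed here.

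The transcript with the highest summed count stood for each gene. The tests used edgeR 4.0.16 in R 4.3.3: quasi-likelihood test with robust fit, TMM, filterByExpr with a minimum count of 10 (all 94 members passed in every comparison), and Benjamini-Hochberg adjustment over all genes tested. Each comparison was fitted on its own 4 samples, and the interaction on all 8. The standard error is the size of the log2 fold change over the root of F. CPM values use TMM library sizes over the 8 samples. The script was tested on simulated data. Alternatives were DESeq2 1.42.0, other normalizations and filters, sums over transcripts, log2(TPM + 1), a replicate block and each sample left out. Removal of the length trend (loess, span 0.5, genes of at least 8 mean CPM), a fit that was not robust and the TPM ratio were added after seeing the data.

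The members, the lists and the markers were chosen with earlier results of these data known. Named are all mitochondrial genes, per comparison the 3 nuclear members with the smallest p in each direction, isoform genes, the highest nuclear member of each complex, the members at the count limit, and 2 genes of each other pathway list. Other names were chosen after their values were seen. Depth was 14835406 to 18138106 counts on genes per sample. With 2 rats per group, the spread between rats limits the precision.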

Additional observations from a re-analysis of the deposited data

Results flagged for a closer look

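The medians of the nuclear subunits lay on opposite sides of the means of their sham groups after irradiation at the 2 ages. The median deviation of the 74 genes from the mean of the own sham group was -0.016 and -0.207 in the 1w4Gy rats and 0.066 and 0.077 in the 4m4Gy rats, on the log2 scale. Both rats of an age lay on the same side of 0, and the ages on opposite sides. The flag required this pattern, so it is not a separate result. It was also sought in the mitochondrial genes and the Ndufaf factors. The difference between these medians was not tested, and no single member passed the adjusted threshold in the interaction. The value of -0.016 in 1w4Gy rat 1 was smaller than the spread of such medians within groups (SD 0.0713). This rat lay within the range of its sham group. Its median deviation from the mean over the 8 samples was 0.046, against 0.033 and 0.091 in the 1w0Gy rats. With the length trend removed, the median log2 fold change of the nuclear subunits in 4m4Gy against 4m0Gy was 0.0052, with 39 of 74 above 0.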

How the results depend on the processing

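No member was called under any alternative that gave a test in 1w4Gy against 1w0Gy, in 4m4Gy against 4m0Gy or in the interaction. In 4m0Gy against 1w0Gy, 1 member (Uqcr10, adjusted p = 0.0397) was called without a filter on low counts, and leaving out a sample gave 0 to 1, with Ndufa4l2 called without 4m0Gy rat 2 (adjusted p = 0.0304); the cause was not tested. Over fits that left out 1 rat at a time, the nuclear median in 1w4Gy against 1w0Gy ranged from -0.2074 to -0.0085 and the mitochondrial median from -0.1075 to 0.1075. In 4m4Gy against 4m0Gy the nuclear median was 0.0052 with the length trend removed, against 0.0794. In the same way, log2 fold changes ranged from -0.0144 to 0.1789 for Ndufs5, from -0.0512 to 0.2434 for Ndufa2 and from -0.2208 to 0.3695 for Ndufa4l2 in 1w4Gy against 1w0Gy. They ranged from -0.0321 to 0.1355 for Atp5if1 and from -0.059 to 0.1414 for Ndufa3 in 4m0Gy against 1w0Gy. A sample left alone in its group was assumed to vary like the other group. These statements cover the counts of members called and the medians of the 2 sets. In their other 153 values, the counts of calls were unchanged and the medians moved by less than the spread between rats, whatever their sign. Among these was the nuclear median in 4m0Gy against 1w0Gy, at -0.085 and, with the length trend removed, at -0.0144 (SD 0.0713). Counts by direction, unadjusted counts, calls over all genes and single genes were less stable. Of their values, 72 moved, 5 reversed in sign, 2 became stronger and 536 stayed the same.

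Replicate numbers were not paired by any label, and deviations of same-numbered samples correlated between -0.24 and 0.19. With the replicate number as a block, no member was called in any comparison, the nuclear medians were -0.1045, 0.079 and -0.0852 in 1w4Gy against 1w0Gy, 4m4Gy against 4m0Gy and 4m0Gy against 1w0Gy, and 4 in place of 15 nuclear members were lower between the ages at an unadjusted p under 0.05. Of the members, Ndufaf2, Cox4i2 and Mt-nd6 rest on the fewest reads, with mean raw counts of 62.1, 77.1 and 83.5.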
